A study of Mus musculus with 36 samples.

Results

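Histone H3 acetylated at lysine 9 (H3K9ac) was compared inside introns of vascular smooth muscle cells, and the peaks described here are those with a lower signal in cells lacking CSE. The set was chosen on the measured values: it holds every listed H3K9ac peak that the authors annotated to an intron and whose mean log2 signal was lower in the knockout than in the wild type. That gave 1666 of 2237 listed intron peaks (74.5%), out of 8115 listed H3K9ac peaks in all, of which 77.2% were lower. Because the direction was the rule, nothing is read from that share. Primary aortic smooth muscle cells were isolated from C57BL/6N mice, the wild type here, and from animals that lack CSE in the whole body (cystathionine gamma-lyase, the product of Cth). Both genotypes received 1 µM angiotensin II for 24 h, so no untreated cells are part of the comparison. Chromatin immunoprecipitation with sequencing was done for H3K9ac, H3K4me3 and H3K9me3, with 3 immunoprecipitated and 3 input samples per genotype and mark, 36 in all. The labels do not say whether the samples of a group come from separate animals, cultures or passages. Only the authors' group values per peak were used here, so no spread between samples can be given, library depth is not known, and each p-value and FDR below is the authors' own.

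Acetylation of H3K9 is deposited by acetyltransferases such as GCN5 and PCAF, removed by histone deacetylases, and marks active promoters and enhancers. Inside genes, intron peaks of an active mark often lie at enhancers or at alternative start sites. CSE makes hydrogen sulfide from cysteine in the vessel wall, and angiotensin II is a vasoconstrictor peptide that acts on smooth muscle through Gq-coupled receptors and calcium release.

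Because the authors' annotation places every intron peak over 3 kb from a start, few can hold one, whatever their direction. By RefSeq, whose starts can differ from that annotation, 15 of the 1666 (0.900%) held the start of a transcript, against 3 of 571 higher intron peaks (0.525%). The sequences of the intron peaks themselves were not read here. RefSeq start windows, which run from 250 bases before to 50 after a start on assembly GRCm38.p6, are therefore shown for 4 starts that lie whole within a member peak. Within member peaks, letters are known only at such windows. These 4 are examples out of 15, some of which lie only partly within the peak. The first belongs to Gm51487, a predicted gene on the minus strand within intron 2 of Igf1r (chr7:68157177-68157476). The second is that of 4931406H21Rik within Zmiz1 (chr14:25586554-25586853, plus strand). The other two are inner starts of Dlg1 (chr16:31695298-31695597, plus strand) and Steap3 (chr1:120258829-120259128, minus strand). Capitals mark matches to any of 4 motifs searched on both strands: AP-1 (TGANTCA), TEAD (GGAATG), the GC box (GGGCGG) and the CArG box of serum response factor. Motif matches may overlap, as the TEAD and AP-1 letters of the Zmiz1 window do.
Igf1r, start of Gm51487: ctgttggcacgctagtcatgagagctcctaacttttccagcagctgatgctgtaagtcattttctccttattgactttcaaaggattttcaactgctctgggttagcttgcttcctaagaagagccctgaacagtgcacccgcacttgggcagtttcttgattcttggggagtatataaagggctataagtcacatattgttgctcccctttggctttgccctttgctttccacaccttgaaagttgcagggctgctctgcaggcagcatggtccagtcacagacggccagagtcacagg
Zmiz1, start of 4931406H21Rik: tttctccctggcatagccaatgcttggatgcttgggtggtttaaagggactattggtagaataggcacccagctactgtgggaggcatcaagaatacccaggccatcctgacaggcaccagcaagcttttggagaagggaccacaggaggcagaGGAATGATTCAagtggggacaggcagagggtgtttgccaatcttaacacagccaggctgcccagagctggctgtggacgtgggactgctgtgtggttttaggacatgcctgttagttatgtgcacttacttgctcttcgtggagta
Dlg1, inner start: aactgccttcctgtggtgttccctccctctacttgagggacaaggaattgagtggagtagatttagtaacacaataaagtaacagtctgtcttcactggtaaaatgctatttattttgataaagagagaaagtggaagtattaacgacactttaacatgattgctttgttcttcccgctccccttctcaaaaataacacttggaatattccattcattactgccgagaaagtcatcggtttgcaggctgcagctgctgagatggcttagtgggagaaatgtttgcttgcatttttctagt
Steap3, inner start: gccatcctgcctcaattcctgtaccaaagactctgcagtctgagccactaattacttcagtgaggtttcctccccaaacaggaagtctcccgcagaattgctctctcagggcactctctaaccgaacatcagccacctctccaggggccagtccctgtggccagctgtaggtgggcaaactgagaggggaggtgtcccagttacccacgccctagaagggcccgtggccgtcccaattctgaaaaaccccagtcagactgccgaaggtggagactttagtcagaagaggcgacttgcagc

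For comparison, windows are shown for 3 of the genes with several member peaks and a lower promoter peak covering a start window whole. They are Cemip (chr7:84086456-84086755, minus strand), Actn1 (chr12:80260314-80260613, minus strand) and Cald1 (chr6:34598254-34598553, plus strand), shown with the same capitals.
Cemip, promoter: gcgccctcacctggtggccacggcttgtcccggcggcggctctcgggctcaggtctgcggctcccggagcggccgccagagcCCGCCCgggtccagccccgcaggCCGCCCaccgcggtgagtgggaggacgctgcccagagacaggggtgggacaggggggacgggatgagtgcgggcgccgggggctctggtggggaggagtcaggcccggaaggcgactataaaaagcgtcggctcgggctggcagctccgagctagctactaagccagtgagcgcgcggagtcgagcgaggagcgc
Actn1, promoter: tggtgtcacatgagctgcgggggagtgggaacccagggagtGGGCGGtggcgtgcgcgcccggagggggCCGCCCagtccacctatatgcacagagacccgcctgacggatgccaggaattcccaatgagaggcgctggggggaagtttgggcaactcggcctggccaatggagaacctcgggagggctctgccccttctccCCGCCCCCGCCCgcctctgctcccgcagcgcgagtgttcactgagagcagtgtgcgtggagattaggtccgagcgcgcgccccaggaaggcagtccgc
Cald1, promoter: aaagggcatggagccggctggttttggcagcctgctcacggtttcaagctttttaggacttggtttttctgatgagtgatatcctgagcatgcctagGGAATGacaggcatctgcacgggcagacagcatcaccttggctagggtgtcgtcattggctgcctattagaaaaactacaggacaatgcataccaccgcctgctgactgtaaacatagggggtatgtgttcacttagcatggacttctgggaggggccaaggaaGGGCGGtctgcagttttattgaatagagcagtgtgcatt

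The 4 start windows shown from intron peaks were poor in CpG. Their ratio of observed to expected CpG was 0.17 at Igf1r, 0.1 at Zmiz1, 0.33 at Dlg1 and 0.3 at Steap3. At the gene's own promoter the ratio was 0.83 for Cemip and 0.69 for Actn1, while Cald1, at 0.33, was as low as the inner starts. Among promoters of this kind read but not shown, it ran from 0.22 at Disp1 to 0.99 at Vgll4 and Unc5b. Over all 32851 windows of the RefSeq table the median was 0.38, and over the 1201 windows of genes with a member peak it was 0.71. No median was taken over genes of higher intron peaks or of other listed H3K9ac peaks, so that value is not read as particular to member genes. GC box letters occurred in 35.7% of all windows, TEAD letters in 14.7%, AP-1 letters in 7.81% and a CArG box in 1.63%. The Cemip window held 2 GC boxes, the Actn1 window 4 and the Cald1 window 1, and none of the 4 inner windows shown held one. Of the inner starts not shown, those of Gm40832, Gm4262 and Gm35558 held 1 each, so the contrast depends on which windows are shown. A match is a description of letters and not a bound site, and these few windows stand for no more than themselves.

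Across the 1666 intron peaks the median difference was 2.24-fold (log2 −1.16), with the middle 50% of peaks between 1.85-fold and 3.03-fold lower by the authors' deposited table. The median group value was 5.63 log2 normalised reads in the wild type and 4.45 in the knockout, per the authors' deposited table. An FDR under 0.05 was reached by 250 members (15.0%) by the authors' deposited table, where 12.6% of all listed H3K9ac peaks, and 16.3% of the lower ones, were lower at that FDR. At least 2-fold lower were 1093 members (65.6%) by the authors' deposited table, beside 49.1% of all listed peaks and 63.7% of the lower ones. Since the members were picked for being lower, the shares among lower peaks are the like-for-like ones, and both are descriptions. All other members are listed at an unadjusted p under 0.05 only.

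Folds of weak and strong peaks cannot be set against each other, because weak peaks are listed only at larger folds, as the plot of both group values shows. With that limit, the 449 members with a wild-type log2 value under 5 had a median fold of 3.43, and 9.80% of them had an FDR under 0.05, by the authors' deposited table. The 206 members between 7 and 8 had a median fold of 1.75, with 23.3% under that FDR, by the authors' deposited table. Median peak width was 319 bp in the weakest class and 2560 bp in the 77 members with a wild-type log2 value of 8 or more. In all, 18 members had a knockout log2 value under 1. Of these, 4 sat at −0.19, the lowest knockout value of the authors' deposited table, so their folds depend on that floor.

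**Figure D1:**
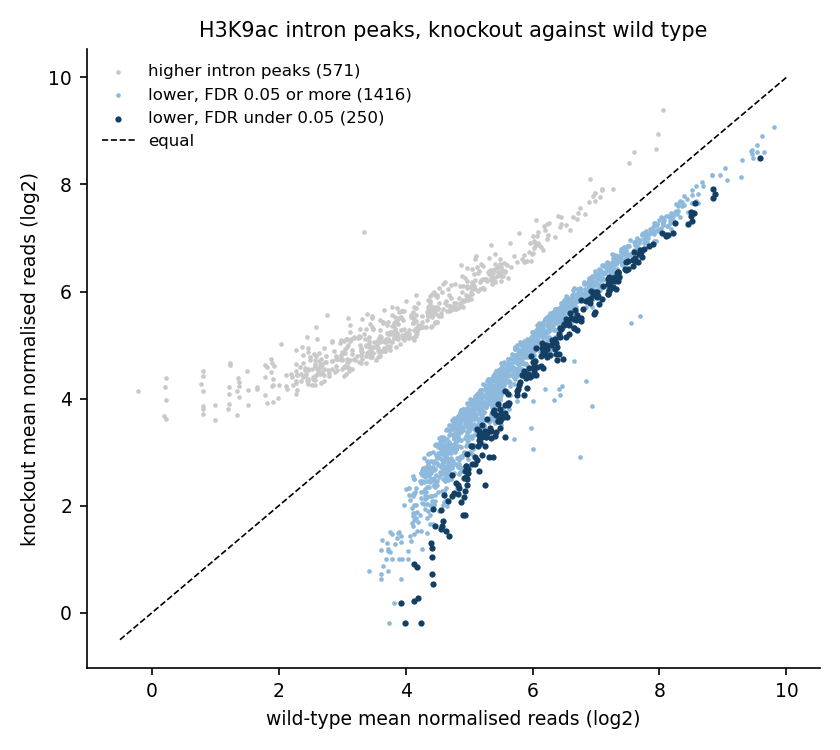
Mean log2 normalised reads in the wild type (horizontal) and the knockout (vertical) for each of the 2237 listed intron peaks, 1 point a peak: grey, 571 higher peaks; blue, 1666 lower peaks, dark where the FDR was under 0.05 (250). Lower peaks run parallel to the dashed line of equal values and bend away from it at low signal, and the empty band around the line is the authors' threshold on p.

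At the threshold the smallest member difference was at Rbm20, 1.45-fold lower (p 0.0491), and the smallest difference on the other side was at Tnfaip8, 1.47-fold higher (p 0.0472), both from the authors' deposited table. The largest listed p among members was 0.0499, in Ank2, and the smallest was 0.000102, in Tanc1, per the authors' deposited table. No listed H3K9ac peak had a p under 0.000101, so peaks of smaller p, if there are any, are not among those described, and the smallest p-values, the FDR shares and the promoters that are not listed below are to be read with that limit. An intron peak lies over 3 kb from a start by the authors' annotation: the nearest member, in Ppp1r13b, was 3002 bp away, while the farthest promoter peak, of Gm38001, was 2998 bp away.

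The smallest listed p-values fell on genes of cytoskeleton, adhesion and signalling as well as on genes of other kinds. Stard13 encodes a GTPase-activating protein. Its first-intron peak (chromosome 5, 151113019 to 151113367) had log2 values of 4.43 in the wild type and 0.54 in the knockout, a 14.8-fold difference (FDR 0.00685) by the authors' deposited table. Itga11 encodes an integrin subunit that binds collagen. A 339 bp peak in its intron 18 (chromosome 9, 62763437 to 62763775) went from 4.25 to −0.19, or 21.7-fold lower (FDR 0.0072), the largest fold of the set by the authors' deposited table and one at the floor. These 2 peaks were narrow and weak in both genotypes.

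Stronger peaks stood beside them. Tanc1, a scaffold protein, had log2 values of 6.98 and 5.62 in its intron 19, 2.57-fold lower with an FDR of 0.00628 by the authors' deposited table. Rbms1, an RNA-binding protein, was 2.91-fold lower in intron 2, and the long noncoding RNA Lncpint 2.27-fold lower over 2145 bp, from 8.45 to 7.27, by the authors' deposited table. Tgfbr3, the TGF-beta co-receptor betaglycan, held a 1498 bp peak in intron 4 that was 2.13-fold lower, from 7.36 to 6.27 (FDR 0.00858) by the authors' deposited table. The junctophilin gene Jph2 (8.4-fold, intron 3), the AMPK-related kinase gene Nuak1 (7.31-fold, intron 2) and the ceramide synthase gene Cers6 (5.54-fold, intron 3) also had small p-values by the authors' deposited table. The dynein adaptor gene Bicd2 was 3.01-fold, the Rac regulator gene Arhgap15 5.7-fold and the small GTPase gene Rhoj 5.5-fold lower by the authors' deposited table. Cdca2 (8.57-fold), Cpped1 (12.9-fold) and Mb21d2 (2.85-fold) complete the 15 members of smallest p by the authors' deposited table. Of these 15 genes, 4 also held a higher intron peak. Rbms1 had 2 in its first intron (3.68-fold, p 0.00564, and 1.64-fold, p 0.0204), and Stard13 (8.34-fold, p 0.0149), Lncpint (4.11-fold, p 0.0187) and Rhoj (2.31-fold, p 0.0391) had 1 each, by the authors' deposited table. None of these 5 higher peaks had an FDR under 0.05. Among genes named below, Maml2 was 1 of several that also held a higher intron peak (1.77-fold, p 0.0184) by the authors' deposited table.

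The 10 largest folds with an FDR under 0.05 were all at narrow, weak peaks. After Itga11 came a 167 bp peak in the last intron of Mid1, a microtubule-associated ubiquitin ligase, at 18-fold by the authors' deposited table. That peak lay 13.8 kb outside the RefSeq gene, in a longer annotated transcript. Lpcat1 (a phospholipid acyltransferase) and Cand2 followed, both 15.0-fold lower, then Stard13 and Cpped1, named above, with Nudcd3 between them at 13.4-fold, and Lpcat2 at 10.3-fold by the authors' deposited table. Rb1, the retinoblastoma tumour suppressor, was 10.1-fold lower in intron 4 and the ubiquitin-conjugating enzyme gene Ube2h 9.51-fold lower in intron 3 by the authors' deposited table. Cand2 also held a higher peak in intron 12 (3.84-fold, p 0.0127) by the authors' deposited table. Wild-type log2 values of the 10 lower peaks ran from 3.93 at Nudcd3 to 4.68 at Ube2h by the authors' deposited table.

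The 5 widest members were broad and strong in both genotypes. A 6408 bp peak in intron 3 of Smad6 had the highest wild-type value of all members, 9.81, against 9.07 in the knockout (1.68-fold, FDR 0.186) by the authors' deposited table. In Actn1, which encodes the actin crosslinker alpha-actinin 1, a 6349 bp first-intron peak (chromosome 12, 80248227 to 80254575) went from 9.58 to 8.49, 2.14-fold lower with an FDR of 0.0181 by the authors' deposited table. Both first-intron peaks of Arhgef17, a guanine nucleotide exchange factor, covered 6177 and 5696 bp and were 1.92-fold and 1.8-fold lower by the authors' deposited table. Pmepa1, a TGF-beta-induced membrane protein, had a 5584 bp peak 1.64-fold lower by the authors' deposited table. Of these 5, only the Actn1 peak had an FDR under 0.05. Over the set, the median width was 640 bp, beside 518 bp for higher intron peaks and 871 bp for lower promoter peaks, and 28.2% of members were 1 kb or wider against 15.2% of higher intron peaks. These differences in width were not tested.

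Lower and higher intron peaks had different shares by intron number and similar distances to a start, and neither difference was tested. The first intron held 541 members (32.5%) and 269 of the 571 higher intron peaks (47.1%). The fifth or a later intron held 496 members (29.8%) and 17.7% of higher peaks, and the tenth or a later one 13.5% and 7.18%. With 1 peak per gene, that of smallest p, the first-intron shares were 30.4% and 48.6%. Genes with members had more introns (median 11 against 9 over peaks). Distances to the nearest annotated start were close, with medians of 9997 and 9546 bp. Over 10 kb away were 832 members (49.9%) and 48.2% of higher peaks, and over 50 kb 4.80% and 5.43%. Among peaks with an FDR under 0.05 the first-intron share of members was 37.2%, and the gap to higher peaks narrowed: the member share minus the higher share was −14.6 percentage points over all listed intron peaks and −9.54 at that FDR.

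**Figure D2:**
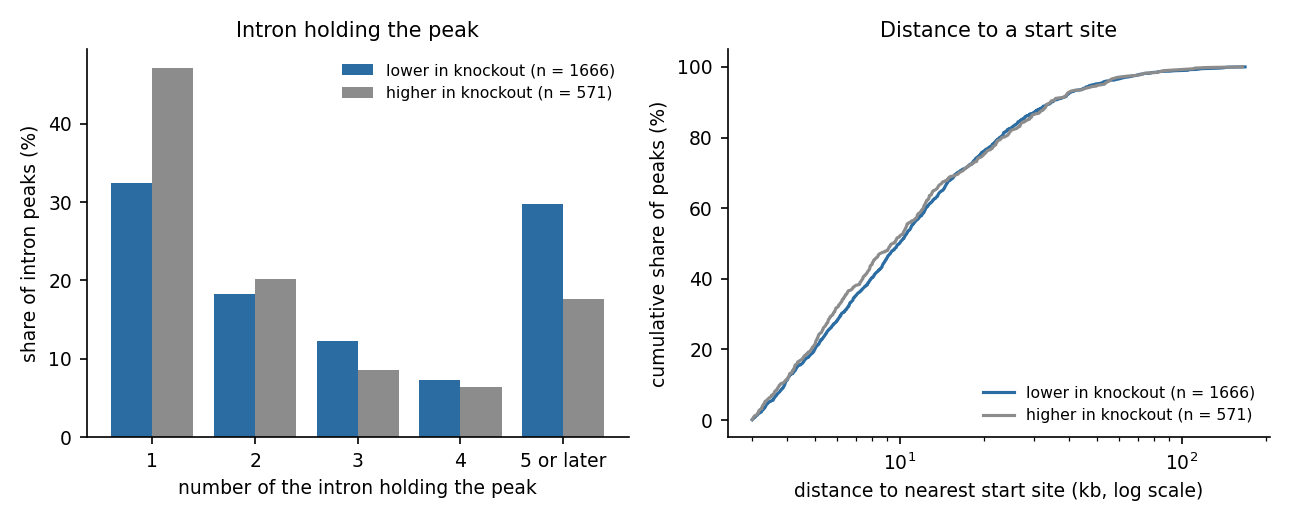
Left, share of lower (blue, 1666) and higher (grey, 571) intron peaks by the number of the intron, with 32.5% and 47.1% in the first; right, cumulative share by distance to the nearest start in kb on a log scale, where the curves nearly coincide and begin at the 3 kb limit of the annotation.

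Most genes with a member held 1, and some held several. By the gene whose intron holds the peak, 1598 members could be placed in 1103 named genes, of which 827 had 1 member and 276 (25%) had 2 or more. Those 276 genes held 771 members (48.2%), and 25 genes with at least 5 held 165. Among higher intron peaks, 79 of 428 genes (18.5%) had 2 or more. The sets differ in size, 1666 and 571 peaks, and a larger set puts more peaks in the same gene, so these shares are not alike. Genes with more members were longer, with a median RefSeq length of 66.7 kb for 1 member, 111.3 kb for 2 or more and 153.1 kb for 5 or more. Of 393 genes with at least 2 listed intron peaks, 248 had lower peaks only, 65 higher peaks only and 80 both. Within 10 kb, 656 members (39.4%) had another listed H3K9ac peak, as had 28.5% of higher intron peaks. Of the neighbours of members 96.5% were lower, beside 21.4% of the neighbours of higher intron peaks and 77.2% of all listed peaks. The neighbours include other members, so the count is a description of runs. Merging members within 10 kb of each other left 1414 separate stretches.

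Smad6, an inhibitory Smad that restrains BMP signalling, held the most: 12 peaks over 52.8 kb (chromosome 9, 63955285 to 64008109) within a gene of 69.0 kb. Of these, 11 lay in its last intron and the other in intron 2. Their folds ran from 1.56 to 6.28 with a median of 1.71, and wild-type log2 values from 4.18 to 9.81, by the authors' deposited table. The largest fold was at the weakest peak, 169 bp wide, from 4.18 to 1.53 by the authors' deposited table. None of the 12 had an FDR under 0.05, and the smallest p was 0.00486, at a 2451 bp peak that went from 7.94 to 7.14 by the authors' deposited table. A peak over exon 3 was also lower (1.82-fold, p 0.0138), and no listed promoter peak was assigned to Smad6, by the authors' deposited table. So every listed H3K9ac peak within the gene was lower, each by unadjusted p alone.

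Tns1 encodes tensin 1, which ties actin to integrins at focal adhesions. Its 11 members, in introns 3 to 19 over 112.2 kb, were 1.53-fold to 3.48-fold lower, the last at a 728 bp peak of intron 18 (5.87 to 4.07, FDR 0.0265) by the authors' deposited table. The other 10 had an FDR over 0.05, and 10 promoter peaks assigned to Tns1 were lower as well. The widest of these spanned 9454 bp and went from 11.1 to 10.2 by the authors' deposited table. In Tns1 the lower signal thus lay at several starts and in the introns between them.

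Foxp1, a forkhead repressor, held 10 members over 503.0 kb, and 3 had an FDR under 0.05 by the authors' deposited table. The strongest, 4394 bp in intron 4, went from 9.65 to 8.6 (2.07-fold, FDR 0.0503), and the one of smallest p, in intron 2, from 7.26 to 6.09 (2.25-fold, FDR 0.00879) by the authors' deposited table. Foxp1 was mixed, since 2 further intron peaks were higher. Cemip, a protein that degrades hyaluronan, had 9 members over 135.7 kb with a median fold of 3.48, from 2.16 to 9.32, by the authors' deposited table. Of these, 7 lay in the first intron. At the Cemip promoter shown above, the 5123 bp peak went from 10.3 to 8.6, 3.16-fold lower (FDR 0.0403) by the authors' deposited table.

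Igf1r, the receptor for insulin-like growth factor 1, had 8 members, 7 of them in intron 2. The 8 were 1.68-fold to 2.6-fold lower by the authors' deposited table. Its strongest peak (chromosome 7, 68155819 to 68158336), the one that holds the Gm51487 start shown above, went from 8.85 to 7.91 with an FDR of 0.0333 by the authors' deposited table. Neighbouring peaks of 1849 and 1440 bp were 2.35-fold and 2.45-fold lower, with FDRs of 0.0261 and 0.0208, by the authors' deposited table. No promoter peak of Igf1r was listed. Mical2, an enzyme that oxidises actin, had 8 members packed into 25.4 kb of intron 3, at 1.57-fold to 3.14-fold, none with an FDR under 0.05 by the authors' deposited table. The Mical2 promoter peak next to them, 2351 bp wide, went from 7.65 to 6.72 with an FDR of 0.0219 by the authors' deposited table.

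Among the other genes with 5 or more members, folds had medians of 1.8 to 2.63 by the authors' deposited table. Fndc3b, which has fibronectin type III domains, held 9 and Nav1, a microtubule-associated protein, 8. Trio (6), a guanine nucleotide exchange factor, had its largest fold, 4.82, at a 145 bp peak and 6 lower promoter peaks by the authors' deposited table. Mrtfa (6), the actin-controlled coactivator of serum response factor, was 1.74-fold to 2.77-fold lower with no FDR under 0.05 by the authors' deposited table. Its strongest peak went from 8.03 to 7.19 (1.79-fold, p 0.00287) by the authors' deposited table. Sh3bp4, Tspan9 and Mta1 had 6 each. Those with 5 were Col5a1, Osbpl3, Soga1, Actn1, Rassf8, Smyd3, Msn, Abl1, Pmepa1, Hmga2, Arhgef17 and Arid5b. Higher intron peaks lay in 3 of these 25 genes: Foxp1 (2), Osbpl3 (1) and Arid5b (1). Outside introns, 1 promoter peak assigned to Actn1 was higher (1.83-fold, p 0.0473), beside 4 lower ones, by the authors' deposited table.

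**Figure D3:**
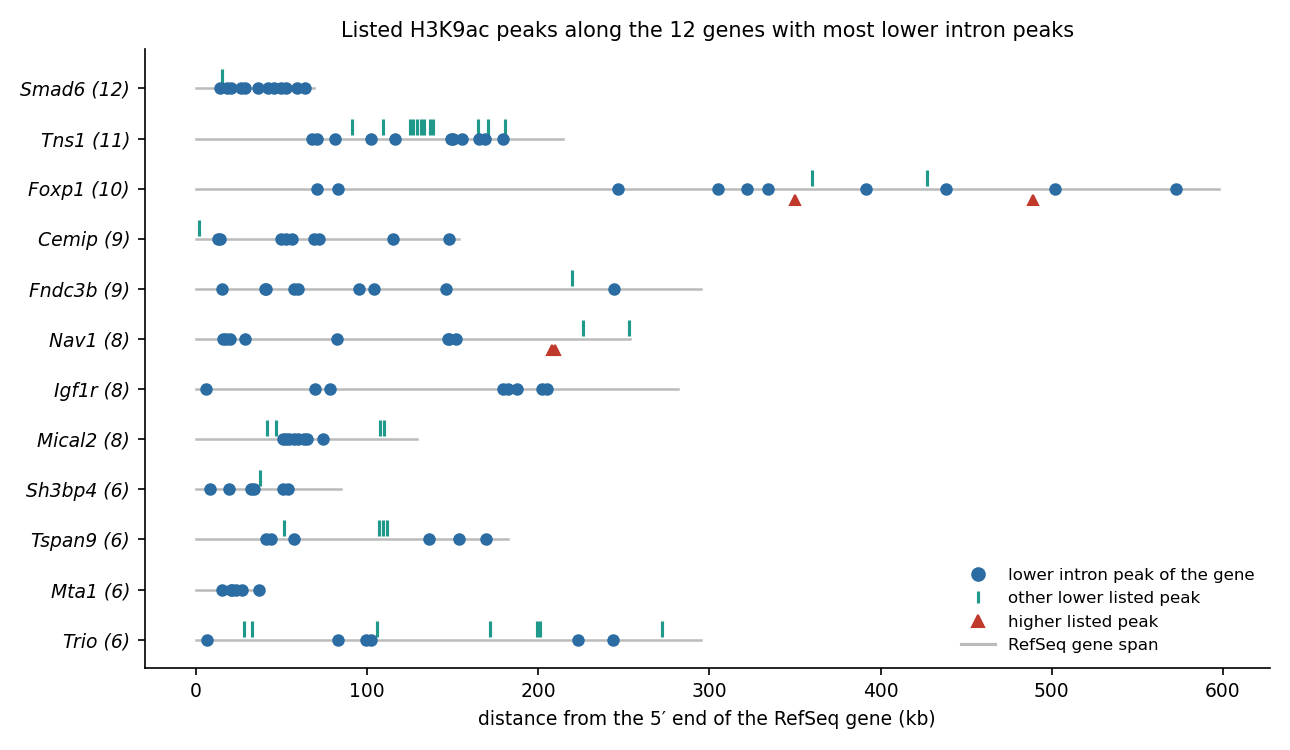
Each row is 1 of the 12 genes with most members (number in brackets), drawn as a grey line along its RefSeq span in kb from the 5′ end, with member peaks (blue circles), other lower listed H3K9ac peaks (green ticks) and higher peaks (red triangles) at their midpoints. Smad6 peaks fill 52.8 kb, Mical2 members crowd into 25.4 kb, and higher peaks appear only within Foxp1 and Nav1.

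Most genes with a member had no promoter peak in the list. Of 1139 genes with a member, 246 (21.6%) had a lower promoter peak, 34 (2.99%) a higher one and 859 (75.4%) none listed. Where a gene had several, that of smallest p was counted. Nothing is known here of a promoter that is not listed, since it may have missed the authors' threshold or have had a p below the smallest listed. Where one was listed it was lower in 87.9% of genes, against 45.7% for the genes of higher intron peaks. Counted per peak, which is another unit, 79.3% of all listed promoter peaks were lower. At Itga11 the promoter peak went from 7.84 to 5.82, 4.06-fold lower (p 0.0133), by the authors' deposited table. Bicd2 had a promoter peak 2.66-fold lower (FDR 0.0324) and Nxpe3 one that went from 4.11 to 0.79 (FDR 0.0379) by the authors' deposited table. The promoter peaks of Nuak1 (1.85-fold), Cers6 (1.83-fold), Mb21d2 (1.96-fold) and Hebp1 (1.66-fold) were strong, at wild-type values of 8.49 to 10.1, and had FDRs over 0.1 by the authors' deposited table. In Hmga2, an architectural chromatin protein, the 6632 bp promoter peak went from 11.6 to 10.4 (2.2-fold, FDR 0.062), and 5 members of intron 3 were 1.69-fold to 5.78-fold lower, by the authors' deposited table.

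The gene named beside a peak by the authors' deposited table is that of the nearest start, which differed from the gene whose intron holds the peak for 587 members (35.2%). In 410 of these cases the named gene was a predicted gene, a RIKEN transcript or a microRNA. All 5 members within introns 1 to 4 of Col5a1, a fibrillar collagen, were assigned to 2810430I11Rik, and none of the 5 within Hmga2 was assigned to Hmga2. The Itga11 peak was assigned to Gm7653 and the Jph2 peak to Tox2. Genes are therefore named here by the intron. By the assigned gene, the contractile list below would hold 5 members in place of 11, the matrix list 10 in place of 17, the TGF-beta and BMP list 8 in place of 15, the Wnt and Notch list 7 in place of 16, the vasoactive list 4 in place of 14, the guidance list 4 in place of 8 and the calcium list 7 in place of 12. Of 1567 members whose gene is in the RefSeq table, 49 (3.13%) lay outside the RefSeq span of that gene, in longer annotated transcripts.

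Genes were then grouped by function, with 74.5% of all listed intron peaks lower as the background. Not every list is reported, and the order below is not a ranking. Contractile and thin-filament genes had 11 members in 5 of 26 genes and 0 higher peaks. Cald1 encodes caldesmon, which binds actin and tropomyosin in smooth muscle, and had 4. Its first-intron peak of 7.21 against 6.02 (chromosome 6, 34641293 to 34642995) was 2.27-fold lower (FDR 0.0113), and the other 3 were 1.65-fold to 2.39-fold lower with an FDR over 0.05, by the authors' deposited table. At the Cald1 start window printed above, the promoter peak went from 11.3 to 10.5 (1.74-fold, p 0.0236) by the authors' deposited table. Ldb3, Synpo2 and Vcl had 2 each and Pdlim7 had 1, at 1.74-fold to 2.51-fold with no FDR under 0.05 by the authors' deposited table.

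Matrix genes had 17 members in 8 of 60 genes and 0 higher peaks, with 4 at an FDR under 0.05. Loxl1 encodes an enzyme that crosslinks elastin. Both of its first-intron peaks were lower, 6.05 against 4.45 (3.03-fold, FDR 0.0115) and 6.58 against 5.21 (2.58-fold, FDR 0.0136), by the authors' deposited table. In Col5a1 the peak of smallest p, in intron 4, went from 6.48 to 4.75 (3.32-fold, FDR 0.00955) and the other 4 were 1.95-fold to 2.16-fold lower by the authors' deposited table. Col4a2, a basement membrane collagen, was 2.08-fold lower in intron 4 (FDR 0.0276) by the authors' deposited table. Fbln2 (fibulin 2) had 4 members of 1.67-fold to 1.96-fold, and Ltbp1, Col18a1, Fbln5 and Hspg2 had 5 between them, all with an FDR over 0.05 by the authors' deposited table. Matrix proteases and inhibitors had 12 members in 7 of 48 genes and 0 higher peaks, led by Adam9 (1.99-fold, FDR 0.0338) and the serine protease gene Htra1 (2.41-fold, FDR 0.0339) by the authors' deposited table.

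Adhesion genes had peaks in both directions. The adhesion list had 29 members in 11 of 54 genes, 11 of them in Tns1 and 5 in Actn1, and 8 higher peaks in 5 genes (Itga6, Itgb3, Lpp, Cdh2 and Dst). Actn4 was 2.08-fold lower in intron 1 (8.49 to 7.42, FDR 0.0219) and Dst 2.07-fold lower in intron 8 (FDR 0.0224) by the authors' deposited table. The share lower, 78.4%, was near the 74.5% of all listed intron peaks.

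Transcription regulators of smooth muscle identity had 29 members in 10 of 39 genes, with 10 in Foxp1 and 6 in Mrtfa, and 8 higher peaks in 6. Vgll4, a cofactor that competes at TEAD proteins, had 4 members at 1.65-fold to 2.51-fold, of which 1 had an FDR under 0.05 (7.21 to 6.25, FDR 0.0371) by the authors' deposited table. Tead1 itself had 1 (2.16-fold, p 0.0114) and its coactivator Wwtr1, known as TAZ, had 1 (1.79-fold, p 0.00646) by the authors' deposited table. Runx1 was 2.0-fold lower in intron 5, from 8.49 to 7.48 (FDR 0.0241), and Elk3, a ternary complex factor, 2.06-fold lower (FDR 0.0329), by the authors' deposited table. Runx1 had a higher peak in intron 4 as well (7.21-fold, from 1.78 to 4.63, FDR 0.0227) by the authors' deposited table. Higher intron peaks also lay in Foxp1, Nfia, Nfib, Runx2 and Smad3.

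Receptors and their pathways followed. The TGF-beta and BMP list had 15 members, 12 in Smad6, 2 in the receptor gene Acvr1 and 1 in Tgfbr3, and 6 higher peaks in 5 genes (Tgfbr2, Fstl1, Ski, Smad1 and Smad3). Growth factor and receptor kinase genes had 21 members in 10 of 61 genes and 5 higher peaks, Igf1r holding 8. Fgfr2 had 4 by annotation, and 3 of these lay 2280 kb or more from the RefSeq gene within 1 long transcript. Only the peak of 1.99-fold (6.59 to 5.6, FDR 0.0346, by the authors' deposited table) lay in Fgfr2 proper, and both Ntrk3 peaks lay outside the RefSeq span. Vasoactive and cyclic nucleotide genes had 14 members in 9 of 62 genes and 3 higher peaks. Gnaq, the G protein subunit through which the angiotensin receptor signals, had 3, led by one of 7.51 against 6.57 (1.91-fold, FDR 0.0374) by the authors' deposited table. Ppp1r12a, the myosin phosphatase targeting subunit, had 2 first-intron members, 2.28-fold (FDR 0.0453) and 2.39-fold lower (FDR 0.0911) by the authors' deposited table. Ptgis, the prostacyclin synthase, was 4.0-fold lower from a wild-type value of 4.79 (FDR 0.0804), by the authors' deposited table.

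Calcium handling genes had 12 members in 10 of 54 genes and 2 higher peaks. The plasma membrane calcium pumps Atp2b4 (3.29-fold, FDR 0.0137) and Atp2b1 (1.95-fold, FDR 0.0295) and the calcium release channel Itpr1 (2.77-fold, FDR 0.0358) were lower by the authors' deposited table. The calcium channel genes Cacna1h (2.99-fold, FDR 0.049) and Cacna1c (1.82-fold, FDR 0.122) were lower by the authors' deposited table, the latter by unadjusted p. Wnt and Notch genes had 16 members in 8 of 54 genes and 5 higher peaks, with Wnt5b 2.11-fold (FDR 0.0205) and Maml2, a Notch coactivator, 2.89-fold lower (FDR 0.0374) by the authors' deposited table. Guidance genes had 8 members in 4 of 39 genes and 1 higher peak, with 4 in the netrin receptor gene Unc5b at 1.62-fold to 4.92-fold by the authors' deposited table.

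Genes of chromatin enzymes were the most mixed of the longer lists, with 20 members in 11 of 81 genes and 13 higher peaks in 9, or 60.6% lower. Kdm4b, a demethylase of H3K9, was 2.25-fold lower in intron 2 (7.2 to 6.03, FDR 0.0245) by the authors' deposited table, and was the only one of the 20 with an FDR under 0.05. A first-intron peak of Kdm4b was higher (2.5-fold, p 0.0204) by the authors' deposited table. Dnmt1, the maintenance DNA methyltransferase, had 3 members of 1.91-fold to 3.46-fold by the authors' deposited table. Inflammation and synthetic-state genes had 1 member, in Relb, and 4 higher peaks, all in Tnfrsf1b. Transsulfuration and redox genes had 1 member, in Txnrd1, and 1 higher peak, in Nfe2l2. Genes tied to human aortic aneurysm had 8 members in 5 of 38 genes, Lrp1 holding 3, and 5 higher peaks in Tgfbr2, Thsd4 and Smad3. Median folds of the lists with at least 8 members ran from 1.74 (TGF-beta and BMP) to 2.42 (proteases), beside 2.24 over all members. No list was tested, and the counts describe listed peaks only.

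**Figure D4:**
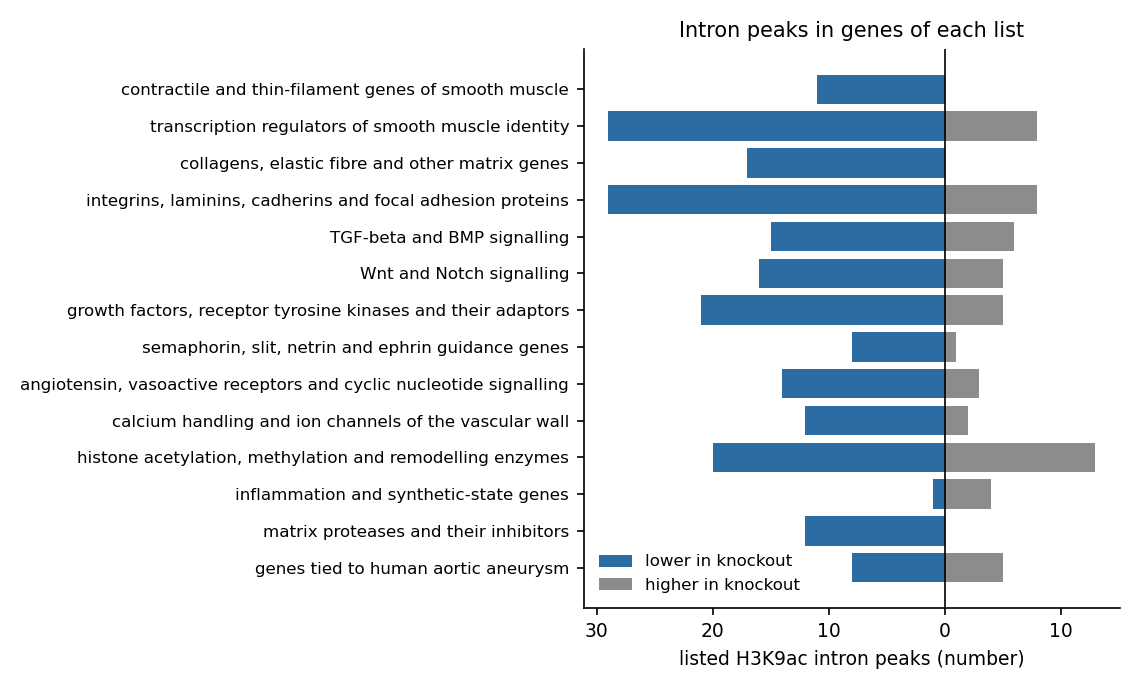
Number of listed H3K9ac intron peaks that were lower (blue, to the left) and higher (grey, to the right) in the knockout, for 14 of the gene lists with at least 5 such peaks, by the gene whose intron holds the peak. Contractile, matrix and protease genes show 11, 17 and 12 lower peaks and none higher, while the chromatin enzyme list has 20 lower and 13 higher.

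Few markers of any cell type held a member. Of 27025 genes with a RefSeq start window, 855 had a member, so short lists hold few at that share. The counts are therefore not read as a result. Of 16 endothelial genes 1 held a member, Vwf (1.57-fold lower, p 0.0243, by the authors' deposited table), and leukocyte, fibroblast, adipocyte, Schwann or neuron, and striated muscle markers held none. Prdm16 of the adipocyte list and S100b of the Schwann and neuron list held 1 higher intron peak each. None of 8 smooth muscle markers held a member, although Acta2, Des, Lmod1, Smtn and Tagln had other listed peaks, 5 lower and 2 higher. Among defining markers of other types, the endothelial genes Pecam1 and Vwf had 1 lower and 1 higher listed peak between them, the lower one being the Vwf member, and the fibroblast genes Lum and Pdgfra had 1 lower and 1 higher. The tables list only peaks that differed, so they cannot show whether a cell type is present, and fewer cells with the mark cannot be told apart from less mark per cell.

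Listed peaks of the other 2 marks rarely overlapped these peaks or higher intron peaks. Those lists hold only peaks the authors selected for knockout against wild type. A mark that was present but not listed cannot be seen here, so few overlaps do not show that it was absent. A listed H3K4me3 peak overlapped 6 members by at least 1 bp (0.360%), in Vgll4, Ostm1, Zfp469, Skap2, Fat1 and Nhsl1, and 0 of the 571 higher intron peaks. The H3K4me3 table gives no direction. The Skap2 member of the first intron went from 9.45 to 8.56 (1.85-fold, FDR 0.0884) around a 1539 bp H3K4me3 peak, and the Fat1 member from 8.21 to 7.09 (2.17-fold, FDR 0.0151), by the authors' deposited table. The Zfp469 member went from 9.29 to 8.14 (2.22-fold, FDR 0.137) by the authors' deposited table. No member overlapped a listed H3K9me3 peak, and none of the 571 higher intron peaks did. Within 1 kb of one lay 1 higher intron peak (0.175%) and 2 members (0.120%), in Pdlim1 and Unc5b. There H3K9me3 was lower too, with a log2 difference of −3.33 at Pdlim1 and −3.07 at Unc5b, each at an FDR of 1 by the authors' deposited table. Of the 1139 genes with a member, 41 (3.60%) had a listed H3K4me3 promoter peak, and 73 (6.41%) had a listed H3K9me3 peak in an intron. The same shares over other genes were not counted, so these cannot be read as many or few.

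The members were spread unevenly over chromosomes, as were the lower peaks outside introns. Chromosomes 6 (149), 1 (140), 7 (138) and 2 (138) held the most. On chromosome 7, 90.8% of listed intron peaks were lower and 91.5% of the others, and on X 96.3% and 92.7%. On chromosome 4 only 22 members were found, 32.4% of its intron peaks, beside 39.3% of its other peaks. Chromosome 11 had 47.1% and 54.5%. Chromosome 18 had the lowest share in introns, 26.9% (21 members), and 41.6% elsewhere, where chromosome 4 was lower. The chromosome thus moved with direction inside and outside introns, and its part in the counts above was not tested. Chromosome 3, which carries Cth, had 88.0% and 87.0%.

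**Figure D5:**
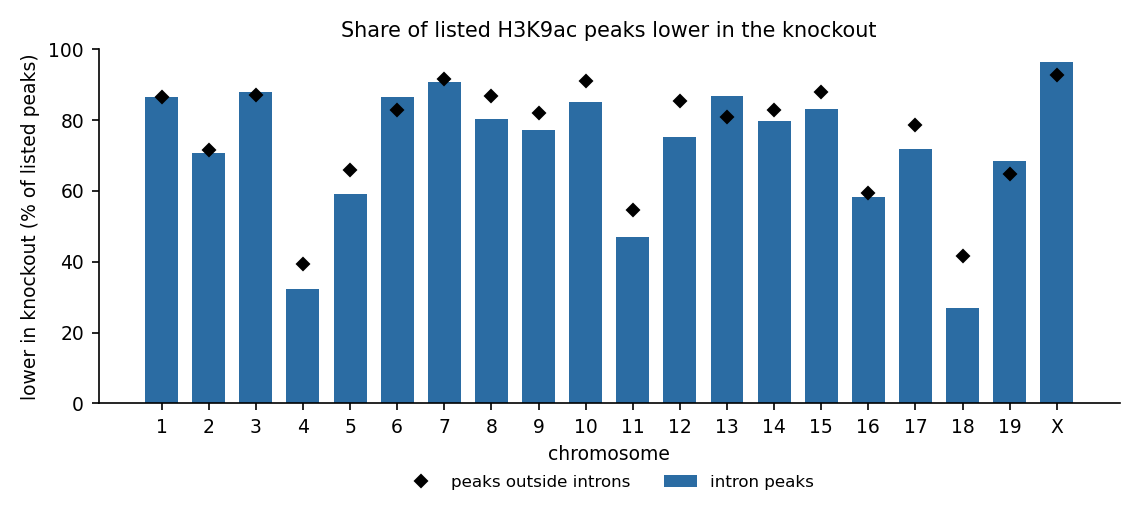
Share of listed H3K9ac peaks lower in the knockout on each chromosome, for intron peaks (bars) and for all other listed peaks (diamonds), in percent. Chromosomes 4, 11 and 18 stand low and 7 and X high for both kinds of peak; chromosome Y, with 1 intron peak, is not drawn.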

How the data were processed

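Each deposited table holds 1 row per peak the authors selected for knockout against wild type. Per the file headers, the authors give log2 mean normalised reads over the libraries of each genotype, the log2 ratio of both, and the p-value with its FDR, for H3K9ac and H3K9me3, and positions without values for H3K4me3. Per the submitters' processing notes, CASAVA 1.4 and the build mm9 were used. The aligner, caller, scaling and differential test were not given in the sources used here. Positions of genes in the deposited H3K9ac table overlapped the RefSeq gene of GRCm38.p6 for 99.7% of matched symbols, so peak positions are printed as given and taken to be of that build, which was not tested further. No H3K9ac peak with a p under 0.000101 is listed. That log2 ratio matched the group values' difference to within 0.01. A fold is 2 to the size of that log2 ratio, and all folds compare the authors' group means. How the libraries were scaled can shift every fold and the split into lower and higher peaks.

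The intron number and gene were read from the annotation. The gene's symbol came from the tables for 1366 members and from the only RefSeq gene spanning the peak for 232, and 68 stayed unnamed. That second way gave the same symbol in 98.8% of 1636 intron peaks where both were known. Widths are end minus start plus 1. A promoter peak lies within 3 kb of a start by the authors' annotation. Python 3.11.15 with numpy 2.4.6, pandas 2.3.3 and matplotlib 3.10.9 was used, and the functions were tested on simulated data. Planned tests on values per sample could not be run, and no other test was made. The members and gene lists were chosen with earlier results of these data known. Named are the 15 members of smallest p, the 10 largest folds with an FDR under 0.05, the 10 genes with most members, up to 4 genes per list, overlaps with other marks, the 5 widest, the threshold's edges and 10 genes with a lower promoter peak, leaving out predicted genes. Genes named beyond these, and the further genes of a list, were chosen after their values were seen. Stricter thresholds, chromosome subsets and other definitions were tried as alternatives. Some results are not reported here.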

Additional observations from a re-analysis of the deposited data

How the results depend on the processing

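Of 61 alternative values, 37 stayed within the counting error of a share or within 1.5 times a count, and 24 moved. That counting error takes peaks as independent, although many share a gene, and several alternatives are subsets of the same peaks. The tally also holds changes of definition, so it describes shifts and does not measure how robust a result is. The count of 1666 lower intron peaks became 673 at p under 0.01, 250 at an FDR under 0.05 and 1093 at 2-fold or more, and genes with more than 1 of them went from 276 to 93, 18 and 148 under the same thresholds. The first-intron share, 32.5%, was 37.2% at that FDR, 28.4% at 2-fold or more and 36.3% with a wild-type log2 value of at least 5, and its difference from higher intron peaks, −14.6 points, was −9.54 at that FDR and −19.5 when only peaks assigned to the gene of the intron were used, and negative under every alternative run. The share over 10 kb from a start was 52.3% with a wild-type log2 value of at least 5, and the share became 100% at over 3 kb, by the annotation's own limit, and 4.80% at over 50 kb. Genes with a lower promoter peak, 21.6%, made up 25.1% at p under 0.01 and 31.2% at that FDR. Within 1 kb, 2 peaks neighboured a listed H3K9me3 peak, against 0 overlaps. Counted by the gene the authors assigned, an alternative chosen after seeing the data, contractile genes had 5 peaks in place of 11, matrix 10 in place of 17, TGF-beta and BMP 8 in place of 15, Wnt and Notch 7 in place of 16, guidance 4 in place of 8, vasoactive 4 in place of 14 and calcium genes 7 in place of 12, while the protease list had 9 and gained 1 higher peak. Stricter thresholds leave fewer peaks by construction, and the cause of the other shifts was not tested. Autosomes alone, or leaving out chromosomes 4 and 18, moved none of the counts or shares given here beyond these limits.

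No paired analysis was possible because the tables give 1 value per genotype and peak, so leaving out a replicate and a replicate block were not run either. Depth is unknown, and other scalings could not be tried.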

Other observations

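The 5 widest lower intron peaks, in Smad6, Actn1, Arhgef17 (2) and Pmepa1, together hold 1 peak with an FDR under 0.05, by the authors' deposited table. RefSeq starts of unnamed or predicted genes lay inside member peaks of Hmga2 (Gm51785), Gmds (Gm35672), Kank1 (Gm52392) and Dync1h1 (Gm35558), with CpG ratios of 0.33, 0.38, 0.13 and 0.29.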
